A study of Mus musculus with 20 samples.

Results

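Wnt proteins are secreted, lipid-modified ligands that bind Frizzled receptors together with the co-receptors Lrp5 or Lrp6. Binding stops the degradation of beta-catenin, which then acts with TCF/LEF factors on target genes, while other Wnt proteins act through Frizzled or Ror receptors without beta-catenin. R-spondins strengthen the signal by keeping Frizzled receptors at the cell surface, secreted Frizzled-related proteins and Wif1 bind Wnt proteins outside the cell, and Dickkopf proteins act on the Lrp co-receptors. In the lung, Wnt2 and Wnt2b are needed for the lung to form in mouse embryos, and in adult mice Wnt signals from fibroblasts act on alveolar type 2 cells that express Axin2, itself a target of beta-catenin.

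The genes described here are the Wnt ligands, the Frizzled receptors with Lrp5 and Lrp6, the R-spondins, the secreted Frizzled-related proteins with Frzb and Wif1, the Dickkopf proteins, and Axin2. They were selected by gene symbol, with earlier results of these data known. Of 24054 genes in the table, 46 had such a symbol, and the 44 with at least 10 counts summed over all libraries were kept. The ones left out were Wnt1 with 6 counts and Wnt8a with 9, and the lowest kept were Dkk4 with 22 and Wnt3 with 52. The 44 genes comprised 17 Wnt ligands, 4 R-spondins, 10 Frizzled receptors, 2 Lrp co-receptors, 6 Wnt-binding antagonists, 4 Dickkopf genes and Axin2. Enough counts for a test were present for 36 of them, of the 16193 genes tested in all. The other 8, namely Wnt3, Wnt8b, Wnt9b, Wnt10a, Wnt16, Fzd9, Dkk1 and Dkk4, fell below the low-count filter and are given by value only.

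RNA of whole lung from female C57Bl6 mice was sequenced, with 20 libraries in 4 groups of 5 biological replicates. KO_HDM are mice labelled ALOX15 knockout that received house dust mite (HDM) extract, an inhaled allergen that causes airway inflammation, into the nose daily for 14 days. KO_saline are mice labelled ALOX15 knockout given saline, WT_HDM are wild-type mice given HDM, and WT_saline are wild-type mice given saline. The labels name neither the age of the mice nor the knockout allele. The study asked how the lung's response to HDM differs between the genotypes, where Alox15 is the gene of a fatty acid oxidising enzyme.

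A library held 17840138 to 21082770 expected counts in KO_HDM, 21120878 to 23305673 in KO_saline, 12573113 to 20662632 in WT_HDM and 15601878 to 21715842 in WT_saline. Values are in CPM, that is counts scaled to the size and composition of the library. Transcript of Alox15 was not reduced in libraries with the knockout label but higher, at 35.0 to 45.5 CPM in KO_HDM, 38.4 to 44.7 CPM in KO_saline, 7.92 to 29.8 CPM in WT_HDM and 0.825 to 11.1 CPM in WT_saline. Every statement on genotype below therefore rests on the labels. Lung tissue markers were present in every library: the 8 alveolar type 2 markers summed to 11431 to 18122 CPM in KO_HDM, 17954 to 25407 CPM in KO_saline, 10713 to 23132 CPM in WT_HDM and 11946 to 20210.0 CPM in WT_saline. Adipose transcripts varied between libraries. The adipocyte gene Adipoq reached 50 CPM or more in 5 libraries, which were KO_HDM 5, WT_HDM 2, WT_HDM 4, WT_saline 2 and WT_saline 4. The liver transcript Alb was at 20.1 to 76.4 CPM in KO_HDM and at most 1.10 CPM in any other library.

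Under HDM more of these genes fell than rose in both genotypes, ligands, receptors and the target Axin2 among them, while the antagonist gene Sfrp1 rose in both. In mice labelled knockout, 19 of the 36 tested genes passed the test between KO_HDM and KO_saline, 16 lower and 3 higher, that is 52.8% against 51.9% of all genes tested. In wild-type mice, 13 of 36 passed between WT_HDM and WT_saline, 12 lower and 1 higher, that is 36.1% against 30.1% of all genes tested. The share that changed was thus close to the background in each comparison, whereas the direction was uneven. Lower genes made up 44.4% of the 36 against 25.7% of all genes in KO_HDM over KO_saline, and 33.3% against 16.5% in WT_HDM over WT_saline. The median log2 fold change of the 36 was -0.23 in the mice labelled knockout, where it was 0.02 over all genes, and -0.41 in wild type, where it was -0.02 over all genes.

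The comparisons of HDM with saline in the 2 genotypes share no library, and 10 genes fell in both: the ligands Wnt2, Wnt3a, Wnt7a and Wnt10b, the receptors Fzd2, Fzd4, Fzd8 and Lrp5, the antagonist Wif1, and Axin2. Sfrp1 rose in both. These 11 shared calls are 57.9% of those in mice labelled knockout and 84.6% of those in wild type, against 50.9% and 87.9% over all genes. Signs were the same in both genotypes for 26 of the 36 genes, or 72.2%, against 83.1% of all genes. Calls here and below are from edgeR's quasi-likelihood F test with Benjamini-Hochberg adjustment over all genes, at an adjusted p under 0.05.

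**Figure D1:**
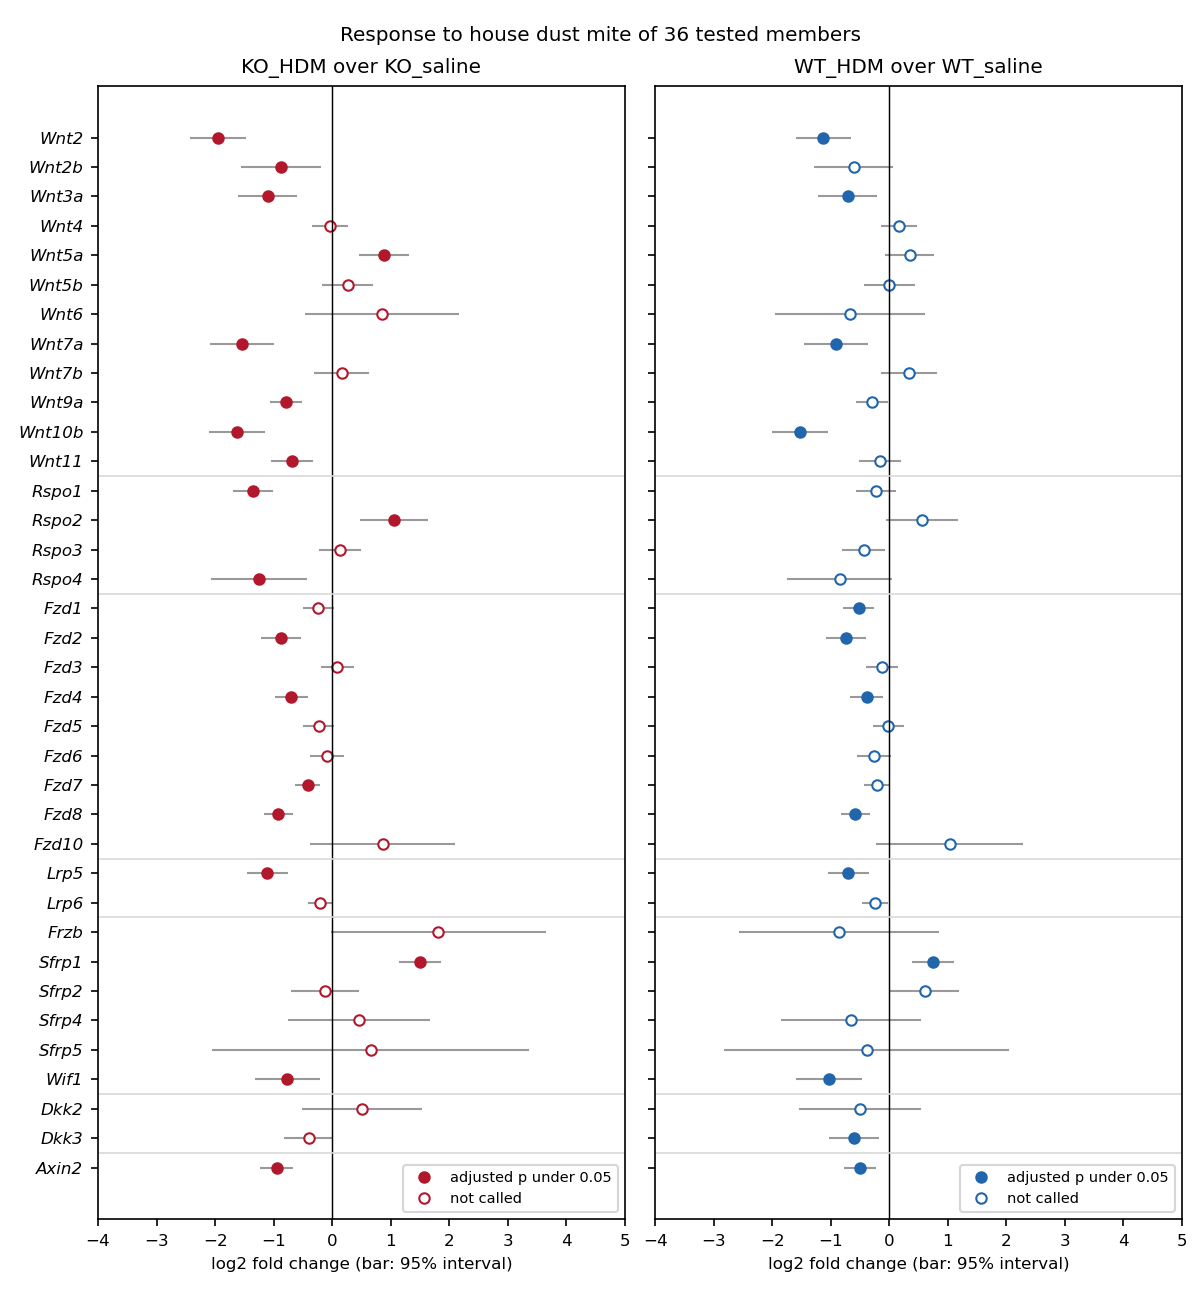
Log2 fold change of each of the 36 tested genes for KO_HDM over KO_saline (left) and WT_HDM over WT_saline (right), with 95% intervals; filled points passed the test and grey lines separate the roles. Most filled points lie left of 0, and Sfrp1 is the one gene right of 0 and filled in both panels.

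RNA from whole lung cannot tell fewer cells of a type from less RNA per cell, and the lung's cell markers moved under HDM as well. Of 9 endothelial markers, 8 were lower in KO_HDM than in KO_saline and 7 in WT_HDM than in WT_saline. Their sum was 1670.5 to 3214 CPM in KO_HDM and 5031 to 5381 CPM in KO_saline, and 2323 to 3975 CPM in WT_HDM and 3687 to 5675 CPM in WT_saline. Alveolar type 1 markers fell for 7 of 8 and 5 of 8 genes in the same comparisons, with sums of 2366 to 4191 CPM in KO_HDM and 5759 to 6674 CPM in KO_saline, and of 2631 to 4969 CPM in WT_HDM and 4158 to 6808 CPM in WT_saline. Lung fibroblast markers were mixed, with 3 of 12 higher and 5 lower in KO_HDM, and 4 of 12 lower in WT_HDM. They summed to 2036 to 3155 CPM in KO_HDM and 2304 to 2784 CPM in KO_saline, and to 2150.1 to 2881 CPM in WT_HDM and 2089 to 3384 CPM in WT_saline. Macrophage markers rose for 6 of 7 genes in KO_HDM and 5 of 7 in WT_HDM, and 1 fell in each. They summed to 4673 to 7726 CPM in KO_HDM and 645 to 1069 CPM in KO_saline, and to 5439.6 to 12376 CPM in WT_HDM and 669.9 to 922 CPM in WT_saline. Club and ciliated markers of the airway fell for 8 of 8 genes in KO_HDM and 6 of 8 in WT_HDM, with sums of 4373 to 8957 CPM in KO_HDM and 19608 to 28926 CPM in KO_saline, and of 4799.9 to 9848 CPM in WT_HDM and 16327 to 22236 CPM in WT_saline. Mesothelial markers fell for 6 of 7 genes in KO_HDM and 1 of 7 in WT_HDM. Alveolar type 2 markers fell for 4 of 8 in KO_HDM, and in WT_HDM 1 of 8 rose and none fell. Smooth muscle and pericyte markers had 1 of 10 higher and 2 lower in KO_HDM, and 3 of 10 lower in WT_HDM. Of 7 T cell markers, 3 rose in KO_HDM and 1 fell in WT_HDM. No gene of the lists named so far was at 0 in a whole group. Of 7 liver markers tested, 6 rose in KO_HDM, and 1 rose and 1 fell in WT_HDM. Among the 8 listed, 3 were at 0 in KO_saline and 3 in WT_saline. Skeletal muscle markers rose for 4 of 6 tested in WT_HDM, and 0 passed in KO_HDM. Their sum was 3102 CPM in WT_HDM 2, 3.52 to 75.1 CPM in the other WT_HDM libraries and 5.32 to 47.3 CPM in WT_saline. The part of these shifts in the Wnt results was not tested.

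Among the ligands, Wnt2 and Wnt10b fell most, and for both the HDM libraries lay wholly below the saline libraries in each genotype. Wnt2 is made by lung mesenchyme. It stood at 5.34, 6.04, 5.11, 3.25 and 2.53 CPM in KO_HDM libraries, against 21.3, 13.7, 15.8, 18.4 and 16.7 CPM in KO_saline libraries. In wild type it stood at 8.71, 4.93, 6.61, 5.17 and 7.67 CPM with HDM, against 15.2, 10.5, 18.4, 11.3 and 16.9 CPM with saline. All 10 HDM libraries were thus under 9 CPM and all 10 saline libraries over 10 CPM. The log2 fold change was -1.94 ± 0.23 (adjusted p = 1.53e-06) in KO_HDM over KO_saline and -1.13 ± 0.22 (adjusted p = 0.00103) in WT_HDM over WT_saline.

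Wnt10b, a beta-catenin-activating ligand known for holding back fat cell formation, was measured at 2.83, 5.36, 2.92, 2.32 and 2.21 CPM in KO_HDM libraries and 9.91, 11.8, 9.99, 9.48 and 7.38 CPM in KO_saline libraries. WT_HDM libraries held 4.26, 2.69, 3.96, 2.74 and 4.605 CPM, against 9.20, 9.17, 12.6, 8.37 and 13.4 CPM in WT_saline libraries. The highest HDM value came from KO_HDM 2 and was still below every saline value. Log2 fold changes were -1.63 ± 0.23 (adjusted p = 1.09e-05) for KO_HDM over KO_saline and -1.53 ± 0.23 (adjusted p = 8.54e-05) for WT_HDM over WT_saline, and the interaction was -0.10 ± 0.32 (adjusted p = 0.917) with a 95% interval from -0.77 to 0.56.

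Wnt3a and Wnt7a also fell in both genotypes, but the wild-type groups overlapped. Wnt3a, a standard activator of beta-catenin signalling, was at 5.82, 10.1, 9.24, 6.56 and 3.61 CPM in KO_HDM and 16.8, 14.6, 14.96, 12.7 and 17.1 CPM in KO_saline, a log2 fold change of -1.10 ± 0.24 (adjusted p = 0.000771). It was at 8.84, 8.13, 7.46, 5.90 and 12.1 CPM in WT_HDM and 11.6, 11.1, 18.8, 10.8 and 17.4 CPM in WT_saline, a log2 fold change of -0.71 ± 0.24 (adjusted p = 0.0298). The wild-type overlap came from WT_HDM 5, which lay above 3 WT_saline libraries. The wild-type call for Wnt3a was lost without any 1 of WT_HDM 1, 2, 3 or 4, WT_saline 3 or WT_saline 5, with adjusted p of 0.0573 to 0.0966.

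Wnt7a was at 4.48, 6.67, 6.18, 4.69 and 2.59 CPM in KO_HDM and 16.6, 11.1, 13.6, 14.4 and 16.2 CPM in KO_saline, groups that did not overlap. It was at 6.86, 5.18, 4.74, 4.19 and 10.8 CPM in WT_HDM and 12.5, 7.88, 15.6, 10.3 and 13.7 CPM in WT_saline, where WT_HDM 5 again overlapped the saline range. The log2 fold changes were -1.54 ± 0.26 (adjusted p = 7.94e-05) for KO_HDM over KO_saline and -0.91 ± 0.26 (adjusted p = 0.0127) for WT_HDM over WT_saline.

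Wnt9a, Wnt11 and Wnt2b fell in KO_HDM and did not pass in WT_HDM. Wnt9a, known for its role in joint formation in mice, averaged 4.56 ± 0.581 CPM in KO_HDM and 7.86 ± 0.841 CPM in KO_saline (SD, n = 5 each), with a log2 fold change of -0.79 ± 0.13 (adjusted p = 6.02e-05) and no overlap. Wnt11, a ligand that mostly acts without beta-catenin, averaged 5.24 ± 1.21 CPM in KO_HDM and 8.41 ± 1.27 CPM in KO_saline, with a log2 fold change of -0.68 ± 0.17 (adjusted p = 0.00257). Wnt2b, the close relative of Wnt2, had a log2 fold change of -0.88 ± 0.33 (adjusted p = 0.0308) in KO_HDM over KO_saline, and this call was lost without any 1 of KO_HDM 3 or 4 or KO_saline 2 or 5, at adjusted p of 0.0653 to 0.118. In WT_HDM over WT_saline, log2 fold changes were -0.30 ± 0.13 (adjusted p = 0.0881) for Wnt9a, -0.15 ± 0.17 (adjusted p = 0.531) for Wnt11 and -0.61 ± 0.32 (adjusted p = 0.166) for Wnt2b. Wnt9a passed in wild type without WT_saline 1 (adjusted p = 0.0385) or WT_saline 4 (adjusted p = 0.0258), and Wnt2b without the 5 libraries rich in Adipoq (adjusted p = 0.0424). None of these 3 differences between genotypes passed the interaction test, with adjusted p of 0.194 for Wnt9a, 0.292 for Wnt11 and 0.834 for Wnt2b.

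Wnt5a, the main ligand of beta-catenin-independent signalling, was the one ligand that rose. KO_HDM libraries had 20.7, 38.1, 48.1, 37.5 and 41.2 CPM and KO_saline libraries 23.0, 16.3, 22.4, 17.4 and 21.4 CPM, a log2 fold change of 0.89 ± 0.20 (adjusted p = 0.00111). Its 4 highest KO_HDM values lay above all KO_saline values, and KO_HDM 1 lay within their range. WT_HDM libraries had 25.03, 26.4, 29.8, 25.03 and 36.2 CPM and WT_saline libraries 16.9, 31.5, 26.7, 17.8 and 18.9 CPM, groups that overlapped at a log2 fold change of 0.35 ± 0.20 (adjusted p = 0.199). Its interaction term was 0.54 ± 0.28 (adjusted p = 0.364).

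The remaining tested ligands did not pass in either genotype. Wnt4 lay at 16.4 to 23.9 CPM in KO_HDM, 18.7 to 23.98 CPM in KO_saline, 19.6 to 34.0 CPM in WT_HDM and 16.7 to 25.7 CPM in WT_saline. Its 95% interval for the log2 fold change ran from -0.34 to 0.27 for KO_HDM over KO_saline and from -0.14 to 0.47 for WT_HDM over WT_saline. Wnt7b, a ligand of the airway epithelium in mouse embryos, had log2 fold changes of 0.17 ± 0.23 (adjusted p = 0.561) and 0.34 ± 0.23 (adjusted p = 0.276) in the same order, and Wnt5b, the close relative of Wnt5a, of 0.26 ± 0.21 (adjusted p = 0.297) and -0.0023 ± 0.21 (adjusted p = 0.996). Wnt6 was low, at 0.320 to 0.974 CPM in KO_HDM, 0.0939 to 0.478 CPM in KO_saline, 0.155 to 0.827 CPM in WT_HDM and 0.188 to 1.76 CPM in WT_saline.

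**Figure D2:**
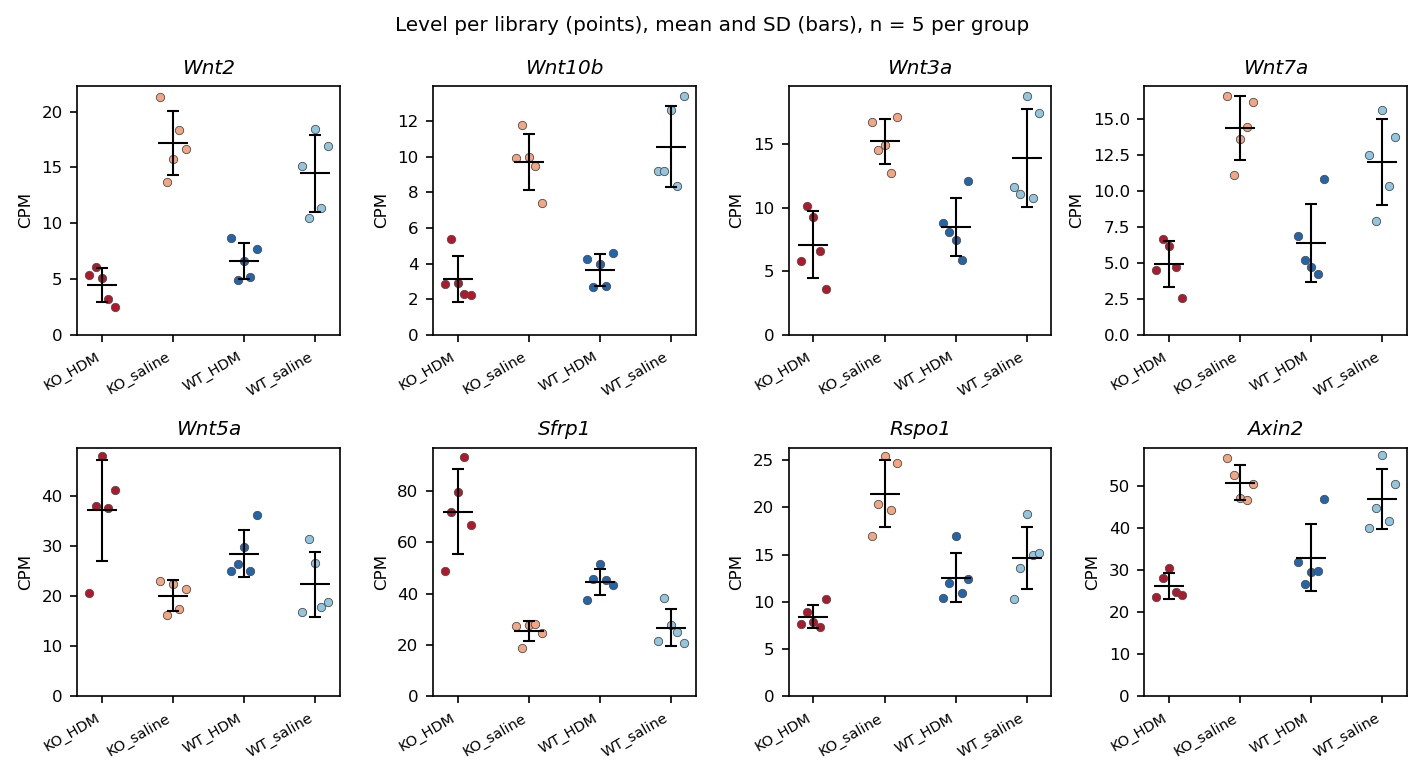
CPM in each library (points) with the mean and SD of each group (bars, n = 5) for 8 genes, groups in the order KO_HDM, KO_saline, WT_HDM and WT_saline. Wnt2 and Wnt10b are lower in every HDM library than in every saline library, Sfrp1 is highest in KO_HDM, and Rspo1 is lowest in KO_HDM and highest in KO_saline.

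Rspo1 was the gene whose response to HDM differed between the genotypes. It fell to 7.63, 8.96, 7.83, 7.39 and 10.3 CPM in KO_HDM libraries, against 16.9, 20.4, 25.4, 19.7 and 24.8 CPM in KO_saline libraries, with no overlap and a log2 fold change of -1.35 ± 0.16 (adjusted p = 2.22e-06). In wild type the groups overlapped, with 10.4, 12.03, 17.0, 10.96 and 12.4 CPM in WT_HDM and 10.3, 13.6, 19.3, 14.9 and 15.2 CPM in WT_saline, a log2 fold change of -0.22 ± 0.16 (adjusted p = 0.314). The interaction, that is the HDM response in mice labelled knockout minus that in wild type, was -1.12 ± 0.23 (adjusted p = 0.0203). Rspo1 was the only 1 of the 36 genes to pass that test, or 2.78% against 1.24% of all genes. The interaction missed the threshold without KO_HDM 4 (adjusted p = 0.0570) and without the 5 libraries rich in Adipoq (adjusted p = 0.0559), at log2 values of -1.11 and -1.26. Levels with saline and with HDM both entered it. Rspo1 had a log2 fold change of 0.55 ± 0.16 (adjusted p = 0.139) for KO_saline over WT_saline and of -0.57 ± 0.16 (adjusted p = 0.0405) for KO_HDM over WT_HDM.

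Markers of the mesothelium, the cell layer that covers the lung, moved beside Rspo1. Of 7 mesothelial markers, 6 were lower in KO_HDM than in KO_saline and 1 in WT_HDM than in WT_saline. They summed to 126 to 204 CPM in KO_HDM, 247 to 465 CPM in KO_saline, 179 to 229.8 CPM in WT_HDM and 204 to 322 CPM in WT_saline. No mesothelial marker passed the interaction test, none was at 0, and the part of these markers in the Rspo1 result was not tested.

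The other R-spondins were less abundant per length, with means over all libraries of 0.687 CPM per kb for Rspo3, 0.360 for Rspo4 and 0.168 for Rspo2, against 7.78 CPM per kb for Rspo1. Rspo2 was at 0.694, 0.585, 1.56, 0.717 and 0.916 CPM in KO_HDM and 0.574, 0.376, 0.396, 0.522 and 0.274 CPM in KO_saline, a rise of 1.05 ± 0.28 (adjusted p = 0.00355) on the log2 scale. WT_HDM libraries had 0.433, 0.576, 0.699, 0.569 and 0.495 CPM and WT_saline libraries 0.381, 0.415, 0.319, 0.414 and 0.330 CPM, which did not overlap either, but the log2 fold change of 0.56 ± 0.30 (adjusted p = 0.177) did not pass. Groups did not overlap for 15 of the 36 genes between KO_HDM and KO_saline, against 43.9% of all genes, and for 5 of 36 between WT_HDM and WT_saline, against 11.6% of all genes. Rspo4 averaged 0.654 ± 0.364 CPM in KO_HDM and 1.56 ± 0.515 CPM in KO_saline (SD, n = 5 each), and fell with a log2 fold change of -1.25 ± 0.39 (adjusted p = 0.0116). Its wild-type log2 fold change was -0.85 ± 0.43 (adjusted p = 0.144), which passed without WT_saline 4 (adjusted p = 0.0494). Rspo3, which is made by endothelial cells in the mouse, did not pass under HDM in either genotype, with log2 fold changes of 0.13 ± 0.17 (adjusted p = 0.549) for KO_HDM over KO_saline and -0.44 ± 0.18 (adjusted p = 0.0689) for WT_HDM over WT_saline. The wild-type value passed without WT_HDM 5, at -0.51 (adjusted p = 0.0374).

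Among the 9 Frizzled receptors tested, 4 fell and none rose in each genotype, where 25.7% of all genes fell in KO_HDM over KO_saline and 16.5% in WT_HDM over WT_saline. They were Fzd2, Fzd4 and Fzd8 in both, Fzd7 in KO_HDM and Fzd1 in WT_HDM. Fzd8, a receptor of the Fzd5 subgroup, had 9.07, 9.31, 9.78, 10.03 and 7.49 CPM in KO_HDM and 16.6, 17.9, 19.8, 15.8 and 16.4 CPM in KO_saline, a log2 fold change of -0.92 ± 0.12 (adjusted p = 4.45e-06). In wild type it had 10.9, 9.85, 9.09, 11.4 and 15.6 CPM with HDM and 16.2, 17.6, 17.6, 16.9 and 16.9 CPM with saline, a log2 fold change of -0.58 ± 0.12 (adjusted p = 0.00130). The groups did not overlap in either genotype, and WT_HDM 5 came nearest to the saline range.

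Fzd2, close in sequence to Fzd1 and Fzd7, had 12.2, 16.9, 17.0, 17.5 and 12.2 CPM in KO_HDM and 29.5, 21.7, 29.7, 25.04 and 32.7 CPM in KO_saline. WT_HDM libraries held 13.9, 12.5, 12.7, 14.8 and 21.7 CPM and WT_saline libraries 21.3, 25.7, 30.1, 20.8 and 28.6 CPM. Only the value of WT_HDM 5 reached into the saline range. Log2 fold changes were -0.87 ± 0.16 (adjusted p = 0.000199) for KO_HDM over KO_saline and -0.74 ± 0.16 (adjusted p = 0.00236) for WT_HDM over WT_saline.

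Fzd4, an endothelial receptor that also binds Norrin, had 62.0, 68.3, 83.0, 67.1 and 80.5 CPM in KO_HDM and 119, 114, 114, 113 and 126 CPM in KO_saline, with no overlap and a log2 fold change of -0.70 ± 0.14 (adjusted p = 0.000283). WT_HDM libraries had 84.0, 74.6, 79.5, 87.9 and 126 CPM and WT_saline libraries 122, 118, 126, 84.2 and 141 CPM, overlapping groups with a log2 fold change of -0.39 ± 0.14 (adjusted p = 0.0366). WT_HDM 5 lay among the saline libraries and WT_saline 4 among the HDM libraries. The wild-type call was lost without any 1 of WT_HDM 1, 2, 3 or 4 or WT_saline 2, 3 or 5, with adjusted p of 0.0598 to 0.145.

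Fzd7 averaged 58.7 ± 7.28 CPM in KO_HDM and 78.5 ± 4.73 CPM in KO_saline (SD, n = 5 each), with no overlap and a log2 fold change of -0.42 ± 0.10 (adjusted p = 0.00246). Its wild-type log2 fold change of -0.21 ± 0.11 (adjusted p = 0.139) passed without WT_HDM 5 (adjusted p = 0.0369) or WT_saline 4 (adjusted p = 0.0478). Fzd1 averaged 47.1 ± 8.70 CPM in WT_HDM and 67.7 ± 9.84 CPM in WT_saline, with a log2 fold change of -0.52 ± 0.13 (adjusted p = 0.00413). Between KO_HDM and KO_saline, Fzd1 had a log2 fold change of -0.24 ± 0.12 (adjusted p = 0.119). Its interaction term was 0.29 ± 0.18 (adjusted p = 0.457), and that of Fzd7 was -0.21 ± 0.15 (adjusted p = 0.531), so neither gene was shown to respond differently in the genotypes.

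Fzd3, Fzd5, Fzd6 and Fzd10 did not pass in either genotype. Fzd5, the receptor most like Fzd8, had log2 fold changes of -0.23 ± 0.13 (adjusted p = 0.129) in KO_HDM over KO_saline and -0.02 ± 0.13 (adjusted p = 0.926) in WT_HDM over WT_saline, and the value in mice labelled knockout passed in a fit of the 10 compared libraries alone (adjusted p = 0.0452). For Fzd6, known for planar cell polarity, they were -0.09 ± 0.14 (adjusted p = 0.611) and -0.26 ± 0.14 (adjusted p = 0.167) in the same order, and the wild-type value passed without WT_HDM 5 (adjusted p = 0.0403) or WT_saline 4 (adjusted p = 0.0460). Fzd3 had 0.09 ± 0.13 (adjusted p = 0.603) and -0.13 ± 0.13 (adjusted p = 0.513). Fzd10 stayed at or below 1.47 CPM in every library, and its intervals were wide, with log2 fold changes of 0.86 ± 0.59 (adjusted p = 0.230) for KO_HDM over KO_saline and 1.03 ± 0.60 (adjusted p = 0.207) for WT_HDM over WT_saline.

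Of the co-receptors, Lrp5 fell in both genotypes and Lrp6 passed in neither. Lrp5, known for its control of bone mass, had 71.5, 92.2, 103, 80.0 and 68.0 CPM in KO_HDM and 182, 192, 189, 159 and 169 CPM in KO_saline, a fall without overlap. It had 104, 78.6, 76.9, 82.2 and 148 CPM in WT_HDM and 128, 152, 189.5, 137 and 189.7 CPM in WT_saline, where WT_HDM 5 overlapped the saline range. Log2 fold changes were -1.11 ± 0.17 (adjusted p = 2.47e-05) for KO_HDM over KO_saline and -0.70 ± 0.17 (adjusted p = 0.00386) for WT_HDM over WT_saline. Lrp6, the more abundant co-receptor per length, had 221 to 291 CPM in KO_HDM, 269.8 to 324 CPM in KO_saline, 227 to 339.9 CPM in WT_HDM and 256 to 327 CPM in WT_saline. Neither of its log2 fold changes passed, at -0.20 ± 0.10 (adjusted p = 0.111) for KO_HDM over KO_saline and -0.24 ± 0.10 (adjusted p = 0.0893) for WT_HDM over WT_saline. The wild-type value for Lrp6 passed without WT_HDM 5 (adjusted p = 0.0117) or WT_saline 4 (adjusted p = 0.0291). The difference between Lrp5 and Lrp6 was not itself tested.

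**Figure D3:**
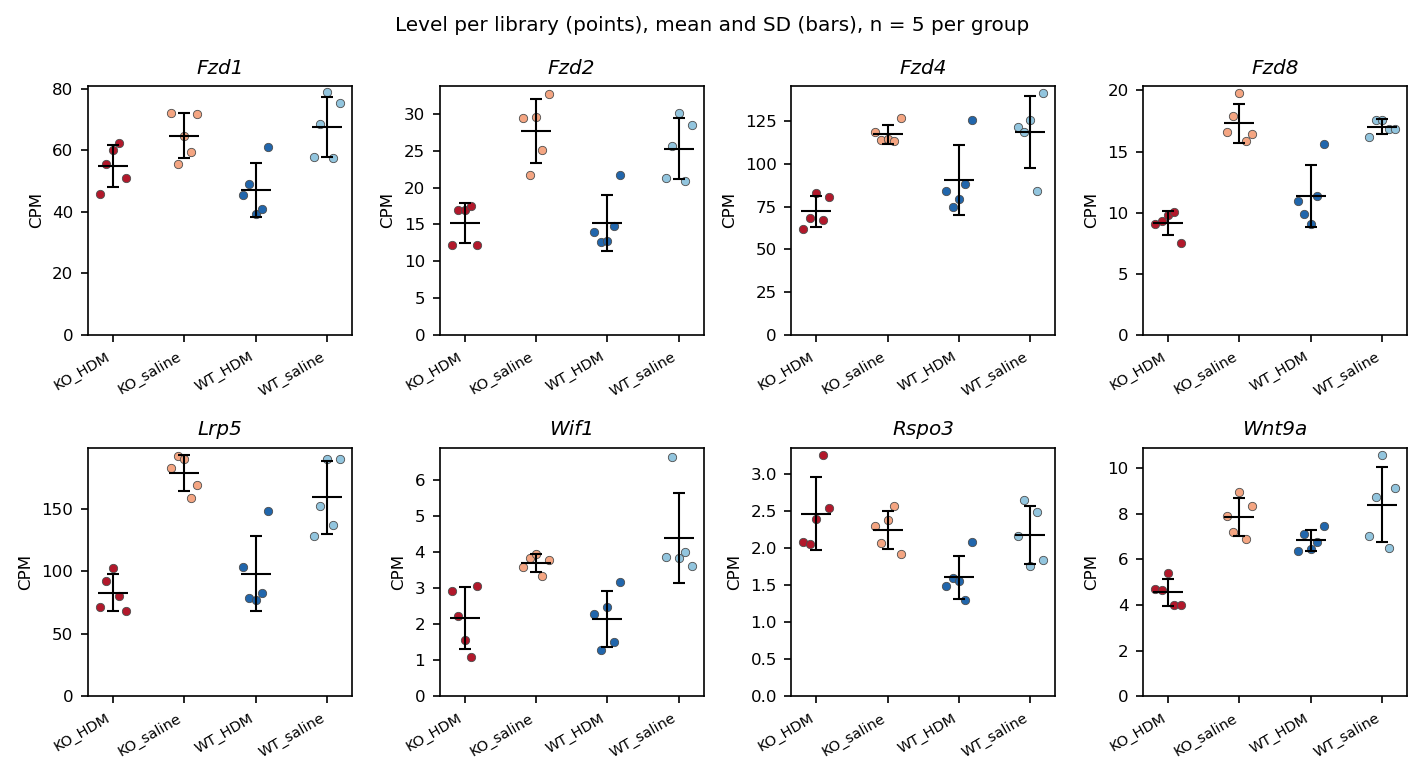
CPM in each library (points) with the mean and SD of each group (bars, n = 5) for 5 receptors, the antagonist Wif1, Rspo3 and Wnt9a. Fzd8 and Wif1 are lower in all HDM libraries than in all saline libraries of the same genotype, and the highest WT_HDM value of Fzd1, Fzd2, Fzd4, Fzd8 and Lrp5 is replicate 5 each time.

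Of the 6 antagonists that bind Wnt proteins, 1 rose and 1 fell in both genotypes. Sfrp1, a secreted Frizzled-related protein, was at 48.8, 71.8, 79.6, 93.3 and 66.8 CPM in KO_HDM libraries and 27.4, 19.0, 27.8, 28.2 and 24.6 CPM in KO_saline libraries. WT_HDM libraries had 37.6, 45.6, 51.7, 45.4 and 43.3 CPM and WT_saline libraries 21.6, 38.5, 27.8, 24.9 and 20.9 CPM. KO_HDM and KO_saline did not overlap, and in wild type WT_HDM 1 alone lay below the highest saline value, that of WT_saline 2. The log2 fold change was 1.504 ± 0.17 (adjusted p = 1.19e-06) in KO_HDM over KO_saline, and 0.74 ± 0.17 (adjusted p = 0.00319) in WT_HDM over WT_saline.

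Wif1, which binds Wnt proteins through its own WIF domain, went the other way. KO_HDM libraries had 2.94, 2.24, 1.56, 1.10 and 3.07 CPM and KO_saline libraries 3.59, 3.85, 3.96, 3.35 and 3.78 CPM. WT_HDM libraries had 2.29, 1.28, 2.49, 1.5 and 3.17 CPM and WT_saline libraries 3.87, 6.63, 3.83, 4.00 and 3.63 CPM. No HDM value reached the saline values of its genotype, and WT_saline 2 stood highest of all. Log2 fold changes were -0.76 ± 0.27 (adjusted p = 0.0225) for KO_HDM over KO_saline and -1.03 ± 0.27 (adjusted p = 0.00749) for WT_HDM over WT_saline. Without the 5 libraries rich in Adipoq the wild-type value was -0.51 and no longer passed (adjusted p = 0.178). The value in mice labelled knockout was lost without any 1 of KO_HDM 3, KO_saline 2 or KO_saline 3, with adjusted p of 0.0526 to 0.0593.

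Sfrp2 did not pass, with log2 fold changes of -0.12 ± 0.28 (adjusted p = 0.743) for KO_HDM over KO_saline and 0.61 ± 0.28 (adjusted p = 0.113) for WT_HDM over WT_saline, and the wild-type value passed with the replicate number as a block (adjusted p = 0.0293). It was at 7.15 to 18.5 CPM in KO_HDM, 10.5 to 21.1 CPM in KO_saline, 10.1 to 19.4 CPM in WT_HDM and 5.65 to 14.3 CPM in WT_saline. Sfrp4, Sfrp5 and Frzb, which is also called Sfrp3, did not pass either, and in each of them single libraries stood out. Frzb had a log2 fold change of 1.81 ± 0.88 (adjusted p = 0.0914) for KO_HDM over KO_saline, which passed in a fit of the 10 compared libraries alone (adjusted p = 0.0192). Sfrp5, a gene known from white adipose tissue, was at 0.480, 1.22, 0.292, 0 and 2.102 CPM in KO_HDM and 0.239, 0.798, 0.132, 1.09 and 0.319 CPM in KO_saline, and at 0.0618, 0.192, 0.311, 7.91 and 0.0990 CPM in WT_HDM and 0.381, 8.76, 0.425, 1.61 and 0.283 CPM in WT_saline. WT_HDM 4 and WT_saline 2 held far more than the rest. Without WT_HDM 4, the log2 fold change of Sfrp5 for WT_HDM over WT_saline was -3.81 and passed (adjusted p = 0.0322), where with all libraries it was -0.39 ± 1.16 (adjusted p = 0.835). Over all omissions of 1 library, this value ran from -3.81 to 1.37, so its sign also turned, and it passed in no other alternative fit.

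The 5 libraries with 50 CPM or more of Adipoq held 0.192 to 8.76 CPM of Sfrp5, against 0 to 1.22 CPM in the other 15. For Frzb these ranges were 0.322 to 3.16 CPM and 0.0618 to 0.681 CPM, and for Sfrp4 they were 1.15 to 4.72 CPM and 0.248 to 1.48 CPM. The adipose markers summed to 13.3 to 1875 CPM in KO_HDM, 19.4 to 309.9 CPM in KO_saline, 31.3 to 2038 CPM in WT_HDM and 25.2 to 1161 CPM in WT_saline. None of the 8 adipose markers passed in either HDM comparison. The part of adipose tissue in these antagonist values was not tested.

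**Figure D4:**
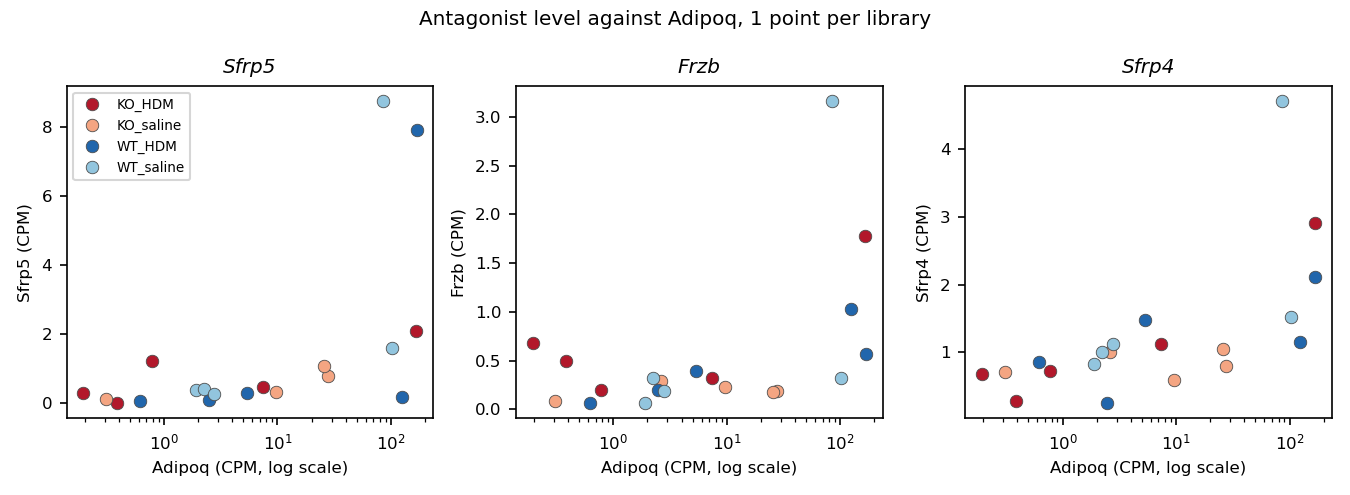
CPM of Sfrp5, Frzb and Sfrp4 (vertical axes) against CPM of Adipoq (horizontal axis, log scale), 1 point per library, coloured by group. The highest value of each antagonist belongs to WT_saline 2, 1 of the 5 libraries at 50 CPM of Adipoq or more.

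Among the Dickkopf genes, Dkk3 carried 98.2% of the family's CPM per kb. Dkk3 is the divergent member that is not known as a regular Lrp ligand. It averaged 72.0 ± 9.99 CPM in KO_HDM and 95.03 ± 11.1 CPM in KO_saline, and 67.3 ± 25.1 CPM in WT_HDM and 102 ± 25.9 CPM in WT_saline (SD, n = 5 each). It fell in wild type, with a log2 fold change of -0.60 ± 0.20 (adjusted p = 0.0308), and did not pass in mice labelled knockout, at -0.40 ± 0.20 (adjusted p = 0.104). In those mice it passed in a fit of the 10 compared libraries alone (adjusted p = 0.00621) and without the 5 libraries rich in Adipoq (adjusted p = 0.00408). The wild-type call was lost without any 1 of WT_HDM 1, 2 or 3 or WT_saline 2, 3 or 5, with adjusted p of 0.0686 to 0.109. It was also lost in a fit of the 10 wild-type libraries alone (adjusted p = 0.141) and with no filter on low counts (adjusted p = 0.0543). The interaction term of 0.20 ± 0.28 (adjusted p = 0.787) did not pass. Dkk2, which acts on the Lrp co-receptors, lay at 0.926 to 1.99 CPM in KO_HDM, 0.264 to 2.30 CPM in KO_saline, 0.792 to 1.40 CPM in WT_HDM and 0.585 to 3.32 CPM in WT_saline, and passed in neither comparison.

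Axin2, a scaffold of the beta-catenin destruction complex that beta-catenin itself switches on, fell in both genotypes. KO_HDM libraries had 23.6, 28.3, 30.6, 24.9 and 24.04 CPM and KO_saline libraries 56.8, 52.7, 47.3, 46.8 and 50.6 CPM. WT_HDM libraries had 32.0, 26.7, 29.7, 29.9 and 46.9 CPM and WT_saline libraries 40.0, 44.9, 57.5, 41.7 and 50.5 CPM. All KO_HDM values lay below all KO_saline values, and in wild type WT_HDM 5 alone reached the saline range. Log2 fold changes were -0.95 ± 0.13 (adjusted p = 1.07e-05) for KO_HDM over KO_saline and -0.505 ± 0.13 (adjusted p = 0.00751) for WT_HDM over WT_saline, and the interaction of -0.45 ± 0.19 (adjusted p = 0.246) did not pass. In a fit of the 10 wild-type libraries alone the wild-type call was lost (adjusted p = 0.0563), as it was without the libraries rich in Adipoq (adjusted p = 0.0666).

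WT_HDM 5 recurs above as the WT_HDM library nearest to saline, for Wnt3a, Wnt7a, Fzd2, Fzd4, Fzd8, Lrp5 and Axin2. This did not hold for every gene. For Wnt2 and Sfrp1 the nearest was WT_HDM 1, and for Wnt5a WT_HDM 5 was the WT_HDM library farthest above saline. Its Alox15 value of 7.92 CPM was the lowest of WT_HDM and lay within the WT_saline range of 0.825 to 11.1 CPM. Its endothelial markers summed to 3975 CPM and its alveolar type 1 markers to 4969 CPM, the highest of the 5 WT_HDM libraries, and its macrophage markers summed to 6226 CPM, within the WT_HDM range. The part of these marker and Alox15 levels in its Wnt values was not tested.

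Without HDM, none of the 36 genes passed between KO_saline and WT_saline in edgeR's test, against 0.908% of all genes, and 4, or 11.1%, had an unadjusted p under 0.05, against 15.7% of all genes. DESeq2 and limma voom called none either. Those 4 were Rspo1 with a log2 fold change of 0.55 ± 0.16 (adjusted p = 0.139), Rspo4 with 1.01 ± 0.39 (adjusted p = 0.230), Sfrp2 with 0.61 ± 0.28 (adjusted p = 0.307) and Frzb with -2.05 ± 0.87 (adjusted p = 0.271). The 95% interval for Rspo1 ran from 0.21 to 0.88. The groups overlapped for each of the 36 genes, and they did not for 3.06% of all genes. Over the 36 genes the median log2 fold change was -0.01, and it was -0.03 over all genes.

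With HDM, 4 of the 36 genes passed between KO_HDM and WT_HDM, or 11.1% against 6.67% of all genes. Sfrp1 and Rspo3 were higher in KO_HDM, as were 4.79% of all genes, and Wnt9a and Rspo1 were lower, as were 1.88% of all genes. Sfrp1 averaged 72.1 ± 16.4 CPM in KO_HDM and 44.7 ± 5.05 CPM in WT_HDM (SD, n = 5 each), a log2 fold change of 0.69 ± 0.17 (adjusted p = 0.0185), and only KO_HDM 1 lay within the WT_HDM range. Wnt9a was at 4.70, 4.68, 5.40, 4.02 and 3.99 CPM in KO_HDM and 6.36, 7.10, 6.45, 6.77 and 7.48 CPM in WT_HDM, without overlap, a log2 fold change of -0.58 ± 0.13 (adjusted p = 0.0102). Rspo1 was also lower in every KO_HDM library than in every WT_HDM library, by a narrow gap, with a log2 fold change of -0.57 ± 0.16 (adjusted p = 0.0405). These 2 of 36 compare with 7.01% of all genes whose groups did not overlap here. Rspo3 was at 2.08, 2.05, 2.38, 3.25 and 2.53 CPM in KO_HDM and 1.48, 1.60, 1.55, 1.29 and 2.08 CPM in WT_HDM, with a log2 fold change of 0.61 ± 0.18 (adjusted p = 0.0429).

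These 4 calls depended on single libraries or on the fit. The call for Sfrp1 was lost without KO_HDM 3 (adjusted p = 0.0504) or KO_HDM 4 (adjusted p = 0.0768), and that for Wnt9a without the 5 libraries rich in Adipoq (adjusted p = 0.0563). The call for Rspo1 was lost without any 1 of KO_HDM 1 to 4 or WT_HDM 2 to 5, with adjusted p of 0.0547 to 0.129. That for Rspo3 was lost without any 1 of KO_HDM 3 to 5 or WT_HDM 1 to 4, with adjusted p of 0.0595 to 0.147. Liver markers moved with this contrast, with 5 of 7 tested higher in KO_HDM. The 8 listed summed to 56.4 to 373 CPM in KO_HDM and 9.21 to 191 CPM in WT_HDM, with Fgb at 0 in WT_HDM. Skeletal muscle markers were lower in KO_HDM for 4 of 6 tested, with sums over the 7 listed of 2.09 to 67.0 CPM in KO_HDM and 3.52 to 3102 CPM in WT_HDM, where the highest sum was that of WT_HDM 2 and the next 75.1 CPM, and with Myh4 at 0 in KO_HDM. Macrophage markers were higher in KO_HDM for 3 of 7, and 1 smooth muscle marker was higher and 1 endothelial marker lower. The part of these markers in the 4 results was not tested.

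The interaction compared the HDM responses directly, and beside Rspo1 no gene of the 36 passed. Unadjusted p-values under 0.05 were reached by 8 of the 36, or 22.2%, against 16.0% of all genes. The larger responses in mice labelled knockout of Sfrp1, with an interaction of 0.76 ± 0.24 (adjusted p = 0.123), and of Wnt2, with -0.82 ± 0.31 (adjusted p = 0.205), were therefore not shown to differ from those in wild type.

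Levels between genes were compared per length, as CPM per kb of exon, averaged over all 20 libraries. Of the 17 ligands, the 6 highest were Wnt4 at 5.12, Wnt2 at 4.73, Wnt3a at 4.05, Wnt5a at 3.84, Wnt2b at 3.60 and Wnt7a at 2.97 CPM per kb, followed by Wnt9a, Wnt11, Wnt10b, Wnt5b and Wnt7b at 2.08 to 1.16 CPM per kb. Wnt6 was at 0.222 CPM per kb, and the 5 ligands below the filter at 0.0442 to 0.0711. The order of the ligands differed between groups: Wnt5a had the highest mean in KO_HDM at 5.28 CPM per kb, Wnt2 in KO_saline at 7.61, Wnt4 in WT_HDM at 5.72 and Wnt2 in WT_saline at 6.41. These leading means were not tested against the next in order. Among the Frizzled receptors, Fzd4 stood at 14.8, Fzd7 at 14.5, Fzd1 at 13.98, Fzd6 at 11.6, Fzd5 at 8.61 and Fzd2 at 5.69 CPM per kb, all above the highest ligand, while Fzd3 at 2.46, Fzd8 at 2.29, Fzd10 at 0.151 and Fzd9 at 0.0892 CPM per kb lay below several ligands. Lrp6 was at 30.1 and Lrp5 at 21.6 CPM per kb. Dkk3 stood at 25.05, Sfrp1 at 9.66, Axin2 at 9.22, Rspo1 at 7.78 and Sfrp2 at 6.88 CPM per kb. Rspo1 carried 77.4% of the R-spondin total in KO_HDM, 88.5% in KO_saline, 88.8% in WT_HDM and 87.5% in WT_saline.

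Summed over a role, the 17 ligands came to 25.4 ± 2.59 CPM per kb in KO_HDM and 39.8 ± 2.77 in KO_saline, and to 29.3 ± 2.42 in WT_HDM and 39.2 ± 6.02 in WT_saline (SD, n = 5 each). The 10 Frizzled receptors summed to 64.6 ± 7.12 CPM per kb in KO_HDM and 84.6 ± 5.14 in KO_saline, and to 65.4 ± 11.8 in WT_HDM and 82.4 ± 10.9 in WT_saline. The 6 Wnt-binding antagonists ran the other way, at 25.4 ± 5.57 CPM per kb in KO_HDM and 15.7 ± 2.56 in KO_saline, and 20.2 ± 3.41 in WT_HDM and 14.98 ± 6.18 in WT_saline. Sfrp1 made up 64.8% of the antagonist level in KO_HDM and 37.1% in KO_saline, and 50.7% in WT_HDM and 40.8% in WT_saline. In KO_saline the share of Sfrp2 was larger, at 49.2%. The 4 R-spondins summed to 5.93 ± 0.780 CPM per kb in KO_HDM and 13.2 ± 1.81 in KO_saline, and to 7.72 ± 1.51 in WT_HDM and 9.13 ± 1.78 in WT_saline. These sums are descriptions and were not tested.

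**Figure D5:**
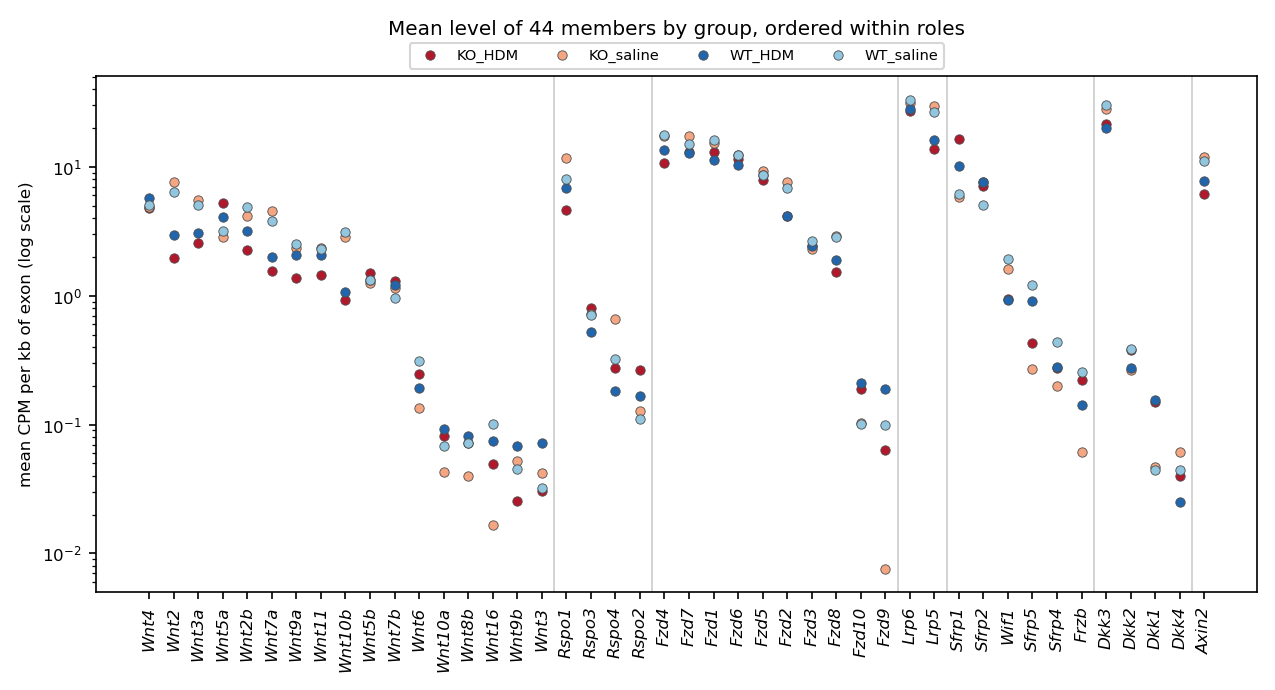
Mean CPM per kb of exon (vertical axis, log scale) of the 44 genes in each group, ordered by level within each role; grey lines separate the roles. HDM groups lie below saline groups for Wnt2, Wnt3a, Wnt7a, Wnt10b and Lrp5 and above them for Sfrp1, and the 8 genes below the low-count filter average at most 0.0991 CPM per kb.

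The 8 genes below the filter were rare in all groups. Fzd9 was at 0.0486 to 0.269 CPM in KO_HDM, 0 to 0.0440 CPM in KO_saline, 0.0618 to 1.73 CPM in WT_HDM and 0 to 0.570 CPM in WT_saline, and its highest value came from WT_HDM 2, the library with 414.5 CPM of the muscle gene Ckm. Dkk1, the classical Lrp antagonist, had 0.480, 0.438, 0.292, 0.331 and 0.269 CPM in KO_HDM and 0.335, 0.0470, 0, 0 and 0.182 CPM in KO_saline, and 0.433, 0.384, 0.466, 0.414 and 0.198 CPM in WT_HDM and 0.190, 0.207, 0.0532, 0.0920 and 0 CPM in WT_saline. Its groups overlapped in both genotypes. Wnt3, Wnt8b, Wnt9b, Wnt10a and Dkk4 stayed at or below 0.782 CPM in every library, and Wnt16 at or below 1.45 CPM, its value in WT_saline 2.

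Within a group the spread differed widely between genes. The median coefficient of variation of the 36 genes was 23.0% in KO_HDM, 15.2% in KO_saline, 23.7% in WT_HDM and 23.7% in WT_saline. The steadiest were Lrp6 in KO_HDM at 9.94%, Fzd4 in KO_saline at 4.73%, Wnt9a in WT_HDM at 6.77% and Fzd8 in WT_saline at 3.51%. The most variable were Sfrp5 in KO_HDM at 103% and in WT_HDM at 202%, Dkk2 in KO_saline at 80.9% and Frzb in WT_saline at 163%.

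The rest of the pathway was read from 7 lists, which share some genes with each other. Their counts stand beside 26.2% of all genes higher and 25.7% lower in KO_HDM over KO_saline, and 13.6% higher and 16.5% lower in WT_HDM over WT_saline. The machinery that makes and releases Wnt proteins moved in both directions. Porcn, the enzyme that attaches the lipid to Wnt proteins, fell with a log2 fold change of -0.90 ± 0.16 (adjusted p = 0.000105) in KO_HDM over KO_saline and -0.85 ± 0.16 (adjusted p = 0.000584) in WT_HDM over WT_saline. Tmed5, a cargo receptor of the early secretory route, rose by 1.19 ± 0.09 (adjusted p = 1.43e-08) and 0.48 ± 0.09 (adjusted p = 0.000677), and Notum, a secreted enzyme that removes the lipid again, fell with a log2 fold change of -1.13 ± 0.23 (adjusted p = 0.000489) and -0.86 ± 0.24 (adjusted p = 0.00952) in the same order. Tmed5 was also higher in KO_HDM than in WT_HDM, by 0.47 ± 0.09 (adjusted p = 0.00340), and its interaction was 0.71 ± 0.13 (adjusted p = 0.00976). Vps35, part of the retromer, rose in KO_HDM by 0.28 ± 0.10 (adjusted p = 0.0211), a call lost without KO_HDM 3 (adjusted p = 0.0520) or KO_HDM 4 (adjusted p = 0.0913). The interaction of Tmed5 was lost without the 5 libraries rich in Adipoq (adjusted p = 0.0676). Of 6 genes, 2 were higher and 2 lower in KO_HDM, and 1 higher and 2 lower in WT_HDM. The list's median log2 fold change was -0.16 in mice labelled knockout and -0.09 in wild type.

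Among 7 R-spondin receptors and regulators of receptor turnover, 3 fell in KO_HDM and 2 in WT_HDM, and none rose. Znrf3, a ubiquitin ligase that removes Frizzled receptors from the cell surface, had log2 fold changes of -0.49 ± 0.14 (adjusted p = 0.00850) in KO_HDM over KO_saline and -0.58 ± 0.15 (adjusted p = 0.00529) in WT_HDM over WT_saline. Its partner Rnf43 fell in KO_HDM, at -0.54 ± 0.14 (adjusted p = 0.00414), and had -0.10 ± 0.14 (adjusted p = 0.655) in wild type. Kremen1, a Dickkopf receptor, had -0.44 ± 0.09 (adjusted p = 0.000680) and -0.35 ± 0.09 (adjusted p = 0.00899) in the same order. Its wild-type call was lost in a fit of the 10 wild-type libraries alone (adjusted p = 0.0692) and without the libraries rich in Adipoq (adjusted p = 0.0973). The median of the list was 0.20 in mice labelled knockout, opposite in sign to the genes that passed, and -0.35 in wild type.

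Other modulators, secreted or at the cell surface, passed for 6 of 9 tested genes in KO_HDM, 2 higher and 4 lower, and for 4 of 9 in WT_HDM, all lower. Tspan12, the partner of Fzd4 in Norrin signalling, fell with a log2 fold change of -0.47 ± 0.13 (adjusted p = 0.00591) in KO_HDM over KO_saline and of -0.54 ± 0.13 (adjusted p = 0.00493) in WT_HDM over WT_saline. Cthrc1, a secreted protein that favours beta-catenin-independent signalling, had -0.93 ± 0.22 (adjusted p = 0.00137) and -0.79 ± 0.22 (adjusted p = 0.0116). The glypican Gpc3 had -1.08 ± 0.16 (adjusted p = 1.40e-05) and -0.45 ± 0.15 (adjusted p = 0.0347). Igfbp4 had -0.44 (adjusted p = 0.0300) and -0.48 ± 0.16 (adjusted p = 0.0303). Its call in mice labelled knockout was lost without any 1 of KO_HDM 1 to 4 or KO_saline 2 to 5 (adjusted p of 0.0580 to 0.117). Sostdc1, an Lrp antagonist, rose in KO_HDM by 3.48 ± 1.17 (adjusted p = 0.0181). The call for Sostdc1 was lost without KO_HDM 1 (adjusted p = 0.0524), and its log2 fold change was 5.79 without KO_saline 4. The wild-type call for Gpc3 was lost without any 1 of WT_HDM 1 to 4 or WT_saline 3 or 5 (adjusted p of 0.0713 to 0.108), that for Igfbp4 without any 1 of WT_HDM 1, 3 or 5 or WT_saline 2 to 5 (0.0644 to 0.121), and that for Cthrc1 in a fit of the 10 wild-type libraries alone (0.0606). The list's median was -0.44 in mice labelled knockout and -0.45 in wild type.

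In the cytoplasm, 9 of 14 genes of the destruction complex and of signal transduction fell and 1 rose in KO_HDM, and 5 of 14 fell in WT_HDM. Btrc, which marks beta-catenin for degradation, had log2 fold changes of -0.56 ± 0.08 (adjusted p = 2.19e-05) for KO_HDM over KO_saline and -0.38 ± 0.08 (adjusted p = 0.00211) for WT_HDM over WT_saline. Apc2 had -0.75 ± 0.16 (adjusted p = 0.000664) and -0.52 ± 0.16 (adjusted p = 0.0195), and the kinase gene Csnk1e had -0.54 ± 0.11 (adjusted p = 0.000391) and -0.36 ± 0.11 (adjusted p = 0.0187). Axin1, the constitutive relative of Axin2, fell in WT_HDM with a log2 fold change of -0.28 ± 0.08 (adjusted p = 0.0118). Dvl1, which relays the signal from Frizzled receptors, fell in KO_HDM with a log2 fold change of -0.44 ± 0.07 (adjusted p = 6.10e-05) and was lower in KO_HDM than in WT_HDM, at -0.33 ± 0.07 (adjusted p = 0.00971). The kinase gene Csnk1a1 was higher in KO_HDM than in WT_HDM, by 0.21 ± 0.06 (adjusted p = 0.0448). In wild type, the call for Apc2 was lost without any 1 of WT_HDM 1 to 3 or WT_saline 3 or 5 (adjusted p of 0.0547 to 0.0664), that for Csnk1e without WT_HDM 1, WT_HDM 2 or WT_saline 5 (0.0505 to 0.0757), and that for Axin1 in a fit of the 10 wild-type libraries alone (0.113). The call for Csnk1a1 was lost without any 1 of KO_HDM 2 to 4 or WT_HDM 2, 4 or 5 (0.0542 to 0.121). The list's median was -0.25 in mice labelled knockout and -0.20 in wild type.

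Nuclear partners of beta-catenin passed for 7 of 12 genes in KO_HDM, 2 higher and 5 lower, and for 4 of 12 in WT_HDM, all lower, shares near the 51.9% and 30.1% of all genes that passed. Tcf7l1, mostly a repressor, had -1.03 ± 0.13 (adjusted p = 3.37e-06) in KO_HDM over KO_saline and -0.58 ± 0.13 (adjusted p = 0.00241) in WT_HDM over WT_saline, and the co-activator gene Bcl9l had -0.66 ± 0.11 (adjusted p = 4.78e-05) and -0.46 ± 0.11 (adjusted p = 0.00305). Tcf7l2 rose in KO_HDM by 0.65 ± 0.12 (adjusted p = 0.000173) while the co-repressor gene Tle1 fell with a log2 fold change of -0.49 ± 0.13 (adjusted p = 0.00400). Lef1, which T cells also express, had 6.53 to 9.82 CPM in WT_HDM, against 46.3 CPM in WT_saline 4 and 10.7 to 14.5 CPM in the other WT_saline libraries. Its log2 fold change for WT_HDM over WT_saline was -1.31 ± 0.32 (adjusted p = 0.00517), and -0.72 without WT_saline 4 (adjusted p = 0.00661). T cell markers summed to 261.0 CPM in WT_saline 4 and to 31.1 to 44.04 CPM in the other WT_saline libraries, and their part in the value of Lef1 was not tested. In KO_HDM over KO_saline Lef1 had -0.78 ± 0.32 (adjusted p = 0.0482), a call lost without any 1 of the 10 libraries other than KO_HDM 4 (adjusted p of 0.0504 to 0.168). Pygo1 fell in WT_HDM with a log2 fold change of -0.54 ± 0.16 (adjusted p = 0.0132), lost without WT_HDM 3 (adjusted p = 0.0534), and the wild-type call for Bcl9l was lost without the libraries rich in Adipoq (adjusted p = 0.0634). The list's median was -0.25 in mice labelled knockout and -0.15 in wild type.

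Genes known as Wnt targets or feedback regulators did not move one way. Of 16, 4 were higher and 7 lower in KO_HDM, and 3 higher and 5 lower in WT_HDM, with medians of -0.37 in mice labelled knockout and -0.28 in wild type. Tnfrsf19 fell with a log2 fold change of -1.06 ± 0.16 (adjusted p = 1.84e-05) in KO_HDM over KO_saline and -1.13 ± 0.16 (adjusted p = 3.99e-05) in WT_HDM over WT_saline. Nrcam, a cell adhesion gene, rose by 2.28 ± 0.18 (adjusted p = 2.42e-08) and 1.53 ± 0.18 (adjusted p = 7.22e-06), and Cd44, an adhesion receptor also abundant on leukocytes, by 1.33 ± 0.13 (adjusted p = 1.86e-07) and 0.57 ± 0.13 (adjusted p = 0.00245). Cd44 was also higher in KO_HDM than in WT_HDM, by 0.80 ± 0.13 (adjusted p = 0.000735), with an interaction of 0.76 ± 0.18 (adjusted p = 0.0416). That interaction was lost without any 1 of KO_HDM 2 to 4, KO_saline 1 to 3, WT_HDM 3 or 4 or WT_saline 1, 3 or 4, with adjusted p of 0.0519 to 0.104. Wisp1 rose in KO_HDM by 1.39 ± 0.25 (adjusted p = 0.000140), and Sp5 in WT_HDM by 1.35 ± 0.25 (adjusted p = 0.000604).

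Receptors and planar polarity genes that act without beta-catenin passed in both directions, with 9 of 14 lower and 1 higher in KO_HDM and 8 of 14 lower and 1 higher in WT_HDM. Daam2 had log2 fold changes of -0.89 ± 0.15 (adjusted p = 6.19e-05) in KO_HDM over KO_saline and -0.64 ± 0.15 (adjusted p = 0.00326) in WT_HDM over WT_saline, and Prickle2 had -1.003 ± 0.19 (adjusted p = 0.000210) and -0.89 ± 0.19 (adjusted p = 0.00165). The Wnt receptor Ryk fell in KO_HDM with a log2 fold change of -0.55 ± 0.10 (adjusted p = 0.000212). Ryk also fell in WT_HDM, with a log2 fold change of -0.34 (adjusted p = 0.0180). That wild-type call was lost without any 1 of WT_HDM 2 or 3 or WT_saline 3 or 5 (adjusted p of 0.0599 to 0.0765). It was also lost in a fit of the wild-type libraries alone (adjusted p = 0.0907) and without the libraries rich in Adipoq (0.0626). Ptk7 fell in WT_HDM with a log2 fold change of -0.63 ± 0.15 (adjusted p = 0.00415). Celsr3 was the gene of this list that rose, by 1.34 ± 0.25 (adjusted p = 0.000218) and 1.27 ± 0.25 (adjusted p = 0.00107). The list's median was -0.41 in mice labelled knockout and -0.33 in wild type.

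Promoter sequence was set beside the response for the genes with a window in RefSeq, from 250 bases before to 50 bases after the gene start on GRCm38.p6. Windows were found for 29 of the 44 genes and for 14 of the 21 that passed in at least 1 HDM comparison. The TCF/LEF cores CTTTGA and CTTTGT, searched on both strands, are the letters through which beta-catenin's partners bind. At least 1 of them was present in 9 of the 29 genes and in 3 of the 14, against 34.5% of all genes with a window. The 3 are Fzd1 at chr5:4758167-4758466 on the minus strand, Fzd7 at chr1:59481897-59482196 on the plus strand, and Wnt11 at chr7:98834862-98835161 on the plus strand, the first of its windows. They are printed because they are the only windows among the responding genes with a core, with the cores or their reverse complements in capitals.
Fzd1: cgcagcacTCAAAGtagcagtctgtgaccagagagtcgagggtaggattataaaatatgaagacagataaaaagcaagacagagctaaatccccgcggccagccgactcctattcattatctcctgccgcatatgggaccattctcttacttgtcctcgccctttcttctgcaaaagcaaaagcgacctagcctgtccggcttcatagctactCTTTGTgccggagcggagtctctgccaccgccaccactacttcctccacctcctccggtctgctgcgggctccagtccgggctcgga
Fzd7: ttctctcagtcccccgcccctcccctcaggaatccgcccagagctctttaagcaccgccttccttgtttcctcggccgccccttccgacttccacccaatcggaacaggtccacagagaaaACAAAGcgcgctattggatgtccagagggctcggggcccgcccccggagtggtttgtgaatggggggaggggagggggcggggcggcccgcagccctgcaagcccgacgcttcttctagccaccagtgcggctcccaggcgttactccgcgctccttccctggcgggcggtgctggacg
Wnt11: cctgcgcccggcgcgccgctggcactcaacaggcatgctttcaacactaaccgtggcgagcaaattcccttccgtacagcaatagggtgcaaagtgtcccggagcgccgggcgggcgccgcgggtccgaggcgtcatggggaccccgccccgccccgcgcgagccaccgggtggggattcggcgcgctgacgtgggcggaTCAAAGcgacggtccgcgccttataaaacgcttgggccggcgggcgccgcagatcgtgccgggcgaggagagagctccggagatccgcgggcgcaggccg

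Axin2, a textbook target of beta-catenin that fell in both genotypes, had neither core in its window, and nor did Wnt2 or Wnt7a. The GC box GGGCGG, searched on both strands, was present in 22 of the 29 genes and in 11 of the 14 that passed, against 38.2% of all genes with a window. The windows of these genes were also richer in G and C than most, with a median GC content of 67.8% over 32 windows against 52.7% over all windows. Axin2 at chr11:108920099-108920398 on the plus strand, Wnt2 at chr6:18030396-18030695 on the minus strand and Wnt7a at chr6:91411304-91411603 on the minus strand are printed because these genes fell in both genotypes, with GC boxes or their reverse complements in capitals. Wnt10b and Rspo1 had neither motif. A match is a description of these letters and not a binding site.
Axin2: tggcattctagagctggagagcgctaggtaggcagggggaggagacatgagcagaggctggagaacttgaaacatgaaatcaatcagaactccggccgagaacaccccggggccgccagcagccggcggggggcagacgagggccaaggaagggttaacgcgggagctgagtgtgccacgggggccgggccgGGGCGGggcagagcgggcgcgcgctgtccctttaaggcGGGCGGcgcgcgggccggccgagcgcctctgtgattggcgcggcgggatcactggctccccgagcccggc
Wnt2: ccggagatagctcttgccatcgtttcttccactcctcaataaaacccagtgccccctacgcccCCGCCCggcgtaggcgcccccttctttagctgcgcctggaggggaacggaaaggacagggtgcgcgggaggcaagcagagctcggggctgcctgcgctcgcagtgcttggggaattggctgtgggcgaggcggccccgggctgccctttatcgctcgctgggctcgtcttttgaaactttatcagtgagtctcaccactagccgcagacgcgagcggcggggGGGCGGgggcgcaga
Wnt7a: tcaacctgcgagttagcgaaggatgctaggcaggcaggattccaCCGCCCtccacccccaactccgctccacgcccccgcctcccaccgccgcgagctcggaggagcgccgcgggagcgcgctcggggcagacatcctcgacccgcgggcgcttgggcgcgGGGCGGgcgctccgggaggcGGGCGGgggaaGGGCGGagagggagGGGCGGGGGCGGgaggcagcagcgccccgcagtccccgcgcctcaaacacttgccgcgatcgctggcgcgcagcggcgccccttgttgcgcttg

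Gene order adds that Wnt3a and Wnt9a, both lower in KO_HDM, are neighbours on chromosome 11. Wnt10b, which fell in both genotypes, neighbours Wnt1, which had too few counts to be kept. A STAT site was present in 1 of the 29 genes, Fzd9, and in 8.01% of all genes with a window.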

How the data were processed

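Whole-lung RNA of 20 mice was sequenced from oligo-dT selected, strand-specific libraries, per the labels' protocols. The submitters' processing notes name Bowtie2 2.1.0, RSEM 1.2.15 and the human build hg38. Since the table has mouse symbols, its build is unknown and its coordinates were not used. What the authors deposited are RSEM expected counts without normalization, in which reads matching several genes are split among them. They were rounded to integers. Between 1.21% and 6.08% of the counts of a library fell on ribosomal Rn45s. The group means were 2.37% in KO_HDM, 1.59% in KO_saline, 4.48% in WT_HDM and 2.22% in WT_saline. The part of this difference in the results was not tested.

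With edgeR 4.0.16 in R 4.3.3, low counts were removed by filterByExpr and TMM factors applied, and group means were fitted over all 20 libraries together (16 residual degrees of freedom). Robust quasi-likelihood F tests gave 5 comparisons, with Benjamini-Hochberg adjustment over 16193 genes and calls at 0.05. Standard errors are the log2 fold change divided by the square root of F. Alternatives were other scaling and filters, DESeq2 1.42.0, limma 3.58.1 voom, the compared groups alone, a replicate block, omission of adipose-rich libraries, a stricter threshold and leaving out each library. Exon lengths came from GENCODE M21 (GRCm38), which may differ from the authors' annotation, and promoter windows from RefSeq GRCm38.p6. The scripts were tested on simulated data. The genes, the 7 pathway lists and the marker lists were chosen with earlier results of these data known. Named genes are the 36 tested ones, and up to 4 called genes per pathway list with the lowest adjusted p. Log2 fold changes are given ± standard error and CPM as mean ± SD.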

Additional observations from a re-analysis of the deposited data

Results flagged for a closer look

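Values of single libraries stood apart from the other 4 of their group in 13 of 144 tests, 36 genes in each of 4 groups, where chance flags about 1 in 20. WT_HDM 5 was far above the other WT_HDM libraries for Axin2 at 46.9 CPM, Fzd2 at 21.7 CPM, Fzd4 at 125.7 CPM and Fzd7 at 73.7 CPM. WT_saline 2, 1 of the adipose-rich libraries, was far above the other WT_saline libraries for Frzb at 3.16 CPM, Sfrp4 at 4.72 CPM, Sfrp5 at 8.76 CPM and Wif1 at 6.63 CPM. WT_HDM 4, also adipose-rich, was far above its group for Sfrp5 at 7.91 CPM, and WT_saline 4 was far below its group for Lrp6 at 256.4 CPM. KO_HDM 2 stood above its group for Wnt10b at 5.36 CPM and Wnt6 at 0.974 CPM, and WT_HDM 3 for Wnt4 at 34.0 CPM.

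The response of Rspo1 to HDM differed between the genotypes by a test of the difference itself, with an interaction of -1.12 on the log2 scale (edgeR, adjusted p = 0.0203). Rspo1 was lower in 5 of 5 KO_HDM libraries than in any KO_saline library. In wild type, WT_HDM and WT_saline libraries overlapped. The interaction also holds the log2 fold change of 0.55 ± 0.16 for KO_saline over WT_saline, which did not pass (adjusted p = 0.139).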

How the results depend on the processing

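Of the 180 fold changes of the 36 genes in the 5 comparisons, 51 took the other sign in at least 1 alternative, and 0 of these passed the test in the reported fit or in the fit of the other sign. Between KO_HDM and WT_HDM, 4 calls became 2 with no filter on low counts, 2 with limma voom, 2 in the compared groups alone, 2 without the adipose-rich libraries and 0 at an adjusted p under 0.01. The 1 interaction call became 0 without the adipose-rich libraries and 0 at that threshold. In the compared groups alone, the 13 calls for WT_HDM over WT_saline became 9 and the 19 for KO_HDM over KO_saline became 22. Leaving out 1 library gave 10 to 18 calls for WT_HDM over WT_saline, 17 to 19 for KO_HDM over KO_saline, 0 to 0 for KO_saline over WT_saline, 1 to 4 for KO_HDM over WT_HDM, with 1 without KO_HDM 3 or KO_HDM 4 and 2 without WT_HDM 2, 3 or 4, and 0 to 1 for the interaction. With the replicate number as a block there were 14 calls for WT_HDM over WT_saline (13 without the block), 19 for KO_HDM over KO_saline (19), 3 for KO_HDM over WT_HDM (4), 1 for the interaction (1), and 1 for KO_saline over WT_saline (0), which was Rspo1 at 0.56 (adjusted p = 0.0182). Same-numbered libraries correlated at -0.468 to 0.578, values too mixed to show whether the numbers pair the samples. A library correlated best with its own number in 0 to 3 of 5 pairs of a comparison, with 3 for KO_saline over WT_saline and 0 for KO_HDM over WT_HDM. Over all genes, calls for WT_HDM over WT_saline numbered 4866, against 2892 in the compared groups alone and 2746 at an adjusted p under 0.01. For KO_HDM over WT_HDM they numbered 1080, against 398 at that threshold and 576 to 1381 without 1 library, and for KO_saline over WT_saline 147, against 327 with DESeq2 and 91 at that threshold. For the interaction they numbered 200, against 608 with DESeq2, 103 without the adipose-rich libraries, 32 at that threshold and 79 to 260 without 1 library. The cause of these shifts was not tested. Depth limits the 8 genes below the filter, and those under 1 CPM rest on few reads.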
